A study of Mus musculus with 18 samples.

Results

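Imprinted genes are transcribed mainly from the allele inherited from a single parent. The 40 genes described here lie in 19 imprinted domains outside the Dlk1-Dio3 cluster, and they were taken by gene symbol from a table of 55450 genes, whatever their levels. The 40 were chosen with earlier results of these data known. By the textbook, 18 of them are expressed from the maternal and 22 from the paternal allele. The libraries carry no allele information, so every value below sums both alleles.

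Gene expression was measured by poly(A)-selected, stranded mRNA-seq in P19 cells, a mouse embryonic carcinoma line derived from a teratocarcinoma and kept undifferentiated in culture. The 3 groups are WT cells with both Dicer alleles, Dicer (+/+), HetKO cells with a frameshift truncation of 1 Dicer1 allele, Dicer (+/-), and HM cells, Dicer (HM/-), in which the E1797G hotspot change of the RNase IIIb domain was knocked into the full-length allele that HetKO cells had kept. Each group has 6 samples, 18 in all. HetKO is a clonal line and HM was made from it, so HetKO and HM share the truncated allele and each genotype is 1 line. A difference caused by the genotype and one fixed when a line was cloned cannot be told apart in this design. The labels do not say that replicates came from separate cultures, so p-values measure only the spread between these samples, which may be technical. In bulk RNA, fewer cells of a type and less RNA per cell cannot be told apart.

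An imprint is a methyl mark on CG pairs, set in the egg or the sperm at a control region and copied at each cell division afterwards. It decides which parental copy of the nearby genes is transcribed, often through a long noncoding RNA or an insulator. Many imprinted genes act on fetal growth, with promoters of growth such as Igf2 expressed from the father's copy and inhibitors such as Igf2r, Grb10 and Cdkn1c from the mother's, and imprints are known to drift in cultured pluripotent and embryonic carcinoma cells.

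Promoters of Igf2r, Airn, Grb10 and Nnat are shown for their CG pairs, the bases on which imprints are written. The windows were placed by start site, whether or not an imprint control region lies there. Each sequence holds the 250 bases before a RefSeq start site in GRCm38.p6, on the gene's own strand, 5′ to 3′, with CG pairs in capitals. Igf2r lies at chr17:12769707-12769956 on the minus strand and holds 27 CG pairs. The start of its antisense RNA Airn, at chr17:12741061-12741310 on the plus strand inside Igf2r, holds 2. Grb10 has an upstream window at chr11:12037421-12037670 with 40 CG pairs and an internal window at chr11:12027972-12028221 with 8, both on the minus strand. Nnat, at chr2:157559828-157560077 on the plus strand inside Blcap, holds 12.
Igf2r: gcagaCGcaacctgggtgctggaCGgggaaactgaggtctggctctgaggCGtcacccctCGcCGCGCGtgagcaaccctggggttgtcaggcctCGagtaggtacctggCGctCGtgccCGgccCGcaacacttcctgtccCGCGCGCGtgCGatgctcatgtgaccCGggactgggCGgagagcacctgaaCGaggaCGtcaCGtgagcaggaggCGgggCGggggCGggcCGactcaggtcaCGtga
Airn: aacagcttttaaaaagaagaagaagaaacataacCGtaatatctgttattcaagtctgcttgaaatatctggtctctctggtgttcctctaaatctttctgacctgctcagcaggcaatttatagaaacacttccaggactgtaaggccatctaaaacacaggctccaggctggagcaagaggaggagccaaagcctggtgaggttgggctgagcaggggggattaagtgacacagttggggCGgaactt
Grb10 upstream: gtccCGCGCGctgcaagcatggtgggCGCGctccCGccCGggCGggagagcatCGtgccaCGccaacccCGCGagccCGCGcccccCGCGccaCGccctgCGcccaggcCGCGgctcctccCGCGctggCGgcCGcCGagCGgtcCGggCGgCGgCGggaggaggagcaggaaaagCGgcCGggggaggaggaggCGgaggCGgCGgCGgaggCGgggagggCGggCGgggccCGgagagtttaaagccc
Grb10 internal: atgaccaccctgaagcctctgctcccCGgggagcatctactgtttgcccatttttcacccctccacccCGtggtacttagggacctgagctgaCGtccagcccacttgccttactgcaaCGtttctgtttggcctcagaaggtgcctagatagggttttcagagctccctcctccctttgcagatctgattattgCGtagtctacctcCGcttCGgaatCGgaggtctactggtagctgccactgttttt
Nnat: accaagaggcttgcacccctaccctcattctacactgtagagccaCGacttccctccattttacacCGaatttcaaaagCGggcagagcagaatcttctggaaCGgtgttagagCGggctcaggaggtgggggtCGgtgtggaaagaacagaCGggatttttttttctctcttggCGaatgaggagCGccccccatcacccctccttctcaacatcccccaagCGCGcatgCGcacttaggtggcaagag

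Over the full RefSeq windows of 300 bases, which add 50 bases after the start, 31 of the 40 genes had 46 windows among 32851 of all genes. The imprinted genes' windows held a median of 17 CG pairs, against 7 over all windows. The hexamer TGCCGC, which the imprint-protecting protein ZFP57 binds when methylated, was searched on both strands. It was found in 12 of the 46 windows, or 26.1%, against 11.6% of all windows. The hexamer itself holds a CG pair, and these shares were not matched for CG content. The 12 windows belong to 11 genes, as overlapping windows of Mest were counted separately. Both the upstream Grb10 window and the Nnat window hold the hexamer once, and the windows of Igf2r and Airn do not. These matches describe the letters of the window only, and no methylation was measured here.

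**Figure D1:**
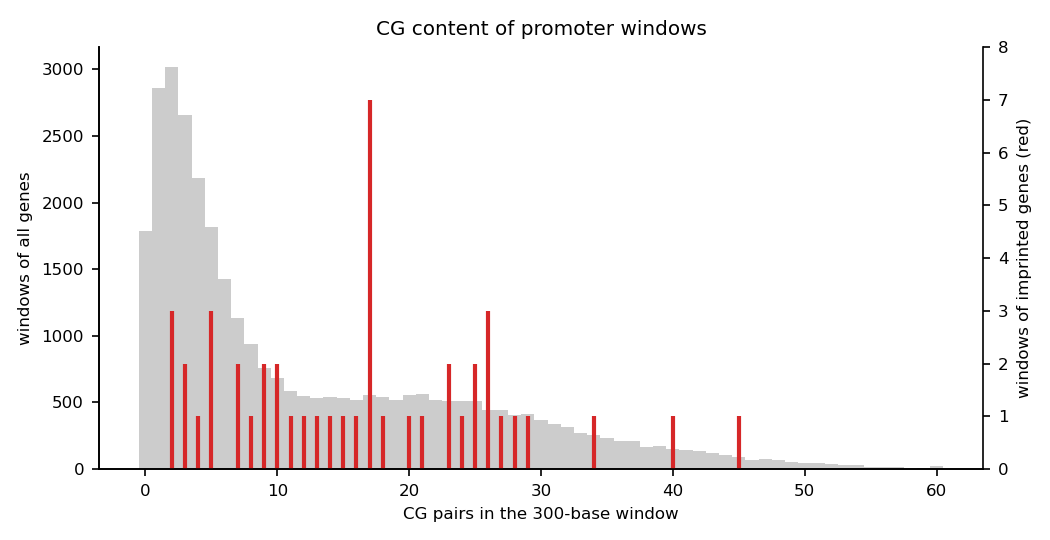
CG pairs in each 300-base promoter window (x axis), as the number of windows of all genes (grey bars, left axis, with windows of 60 or more in the last bar) and of the imprinted genes (red lines, right axis). The imprinted genes' windows centre on 17 pairs, while the bulk of all windows lies below 10.

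Levels ranged widely among the 40 genes. Mean expression in WT ran from 678 TPM for Snrpn, a splicing factor gene, and 480 TPM for Gnas, the stimulatory G protein gene, down to 0 for Kcnq1ot1. TPM counts transcripts in proportion to a gene's reads per length and scales each sample to a fixed total. A mean of at least 1 TPM in some line was reached by 36 genes. The other 4 were Kcnq1, a potassium channel, with 0 to 0.41 TPM over the 18 samples, Nap1l5 with 0 to 0.19 TPM, and the noncoding RNAs Airn and Kcnq1ot1. Kcnq1ot1 was listed at 0 in all 18 samples, and Airn in 13.

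The 8 markers of undifferentiated cells were each at or above a mean of 1 TPM in each line, and Pou5f1 lay between 1814 and 2244 TPM in the 18 samples. They summed to 3135 to 3556 TPM in WT, 2970 to 3588 TPM in HetKO and 3371 to 3871 TPM in HM. Within this list 5 genes passed between HM and WT, 3 higher and 2 lower. Nanog fell from a mean of 46.9 TPM in WT to 18.8 TPM in HM (adjusted p = 0.000903 from limma) and Sall4 from 24.5 to 8.85 TPM (adjusted p = 0.0122 from limma), to as little as 0.63 TPM in HM 4, while Sox2, Utf1 and Lin28a rose. In HetKO, Sox2 and Sall4 rose and Utf1 fell against WT. Of 5 endoderm markers, Gata4, Sox17, Foxa2 and Afp were under 1 TPM in every sample, and Gata6 lay between 1 and 3.47 TPM in WT, 0.92 and 2.2 TPM in HetKO and 0.2 and 1.29 TPM in HM. Samples of a line were not all equally alike. Computed on the 682 genes averaging 200 TPM or more, the log2 values of paired samples differed with a robust SD of 0.0493 to 0.105 in the pairs WT 1 and 4, 2 and 5, 3 and 6, HetKO 1 and 4, 2 and 5, 3 and 6, and HM 1 and 4, 2 and 3, 5 and 6. The other pairs were at 0.164 to 0.359 in HetKO and 0.167 to 0.279 in HM. In WT they were at 0.0728 to 0.205, which meets the 0.0493 to 0.0745 of the 3 alike WT pairs, so those were not set apart from all other WT pairs. TPM keeps no read depth, so whether alike samples were repeats of a culture could not be judged, and each result was also computed on the means of these 9 pairs. WT 1 and 4 lay outside the range of the other 4 WT samples in 23 of 34 imprinted genes, higher in 9 and lower in 14, against 51.9% of 13935 genes. For HetKO 2 and 5 this was 22 of 34 genes, higher in 11 and lower in 11, against 58.8%. HetKO 2 and 5 also carried 69.1 to 115 TPM summed over the 4 mesoderm markers, against 3.99 to 12.1 TPM in the other HetKO samples, almost all of it from T, with Mesp1 under 1 TPM throughout. Their summed trophoblast markers were 70.5 to 83.5 TPM against 7.21 to 15.7 TPM, nearly all from Eomes, with Elf5 at 0 and Cdx2 at 2.72 and 2.58 TPM against 0 to 0.16 TPM in the other HetKO samples.

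Differences between lines are given on log2(TPM + 1), which understates changes of low genes, with adjusted p-values from limma over all genes tested and a threshold of 0.05. A gene was tested where its mean over the 12 samples reached 1 TPM. Between HM and WT, 23 of 34 imprinted genes passed, 10 higher and 13 lower in HM. The background was 51.4% of 14043 genes, 19.4% higher and 32.0% lower. The median log2 difference was -0.07 for the imprinted genes and -0.09 for all genes. Markers of other cell types moved in the same comparison. The mesoderm markers summed to 7.04 to 12.2 TPM in WT and 13.6 to 43.9 TPM in HM, with T at means of 5.83 and 24.2 TPM (adjusted p = 0.000418 from limma), Mixl1 higher and Tbx6 lower (adjusted p = 0.000164 from limma). The trophoblast markers summed to 7.29 to 11.3 TPM in WT and 12.8 to 22.3 TPM in HM, with Eomes at means of 9.13 and 18.5 TPM (adjusted p = 0.000145 from limma). The endoderm marker Gata6 was lower in HM (adjusted p = 0.00625 from limma). So were the fibroblast markers Col1a2 (adjusted p = 0.00346 from limma) and Thy1 (adjusted p = 5.88e-05 from limma), while Col1a1 did not pass. Of 4 neural ectoderm markers only Tubb3 was tested, and it did not pass, at -0.08 (adjusted p = 0.709 from limma). The part of these markers and of the undifferentiated markers above in the HM results was not tested. Between HetKO and WT, 4 of 36 passed, Grb10 and Ascl2 higher and Igf2r and Dcn lower. Of all 13999 genes, 10.2% passed there, 3.71% higher and 6.44% lower, so the share of 11.1% among the imprinted genes was near the background. Between HM and HetKO, 17 of 33 passed, 7 higher and 10 lower in HM, against 34.6% of 13762 genes, 14.0% higher and 20.6% lower. The 3 comparisons share samples, so their calls are not independent of each other.

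By parental origin, 11 of 16 tested maternally expressed genes (68.8%) and 12 of 18 paternally expressed genes (66.7%) passed between HM and WT. Over all genes 51.4% passed there. Between HetKO and WT the 4 that passed were all among 17 maternally expressed genes (23.5%). None of 19 paternally expressed genes passed there in limma, against 10.2% of all genes. At an unadjusted p under 0.05 there were 7 such paternally expressed genes, and the unequal-variance test called 0. Under other alternatives the paternally expressed Peg13, Plagl1, Rasgrf1, Nnat, Igf2, Peg3, Peg10 and Sgce passed at least once. Their adjusted p from limma then ran from 0.00205 to 0.046. Igf2 and Peg3 passed only with the replicate number as a block, although replicate numbers do not pair the samples. The maternally expressed H19 and Gnas also gained a call under some alternatives. Whether the classes differed was not tested.

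Each value that passed was examined again on the pair means. Between HM and WT, 13 genes kept their call: Igf2r, Cdkn1c, Phlda2, Peg3, Usp29, Snrpn, Magel2, Peg10, Copg2, Gnas, Mcts2, H13 and Trappc9. Between HetKO and WT only Grb10 kept it, and between HM and HetKO Igf2r, Grb10 and H13 did. Every other call on the 40 genes was lost with pair means. Over all genes, pair means called 3414 of 14043 between HM and WT, 35 of 13999 between HetKO and WT and 454 of 13762 between HM and HetKO.

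**Figure D2:**
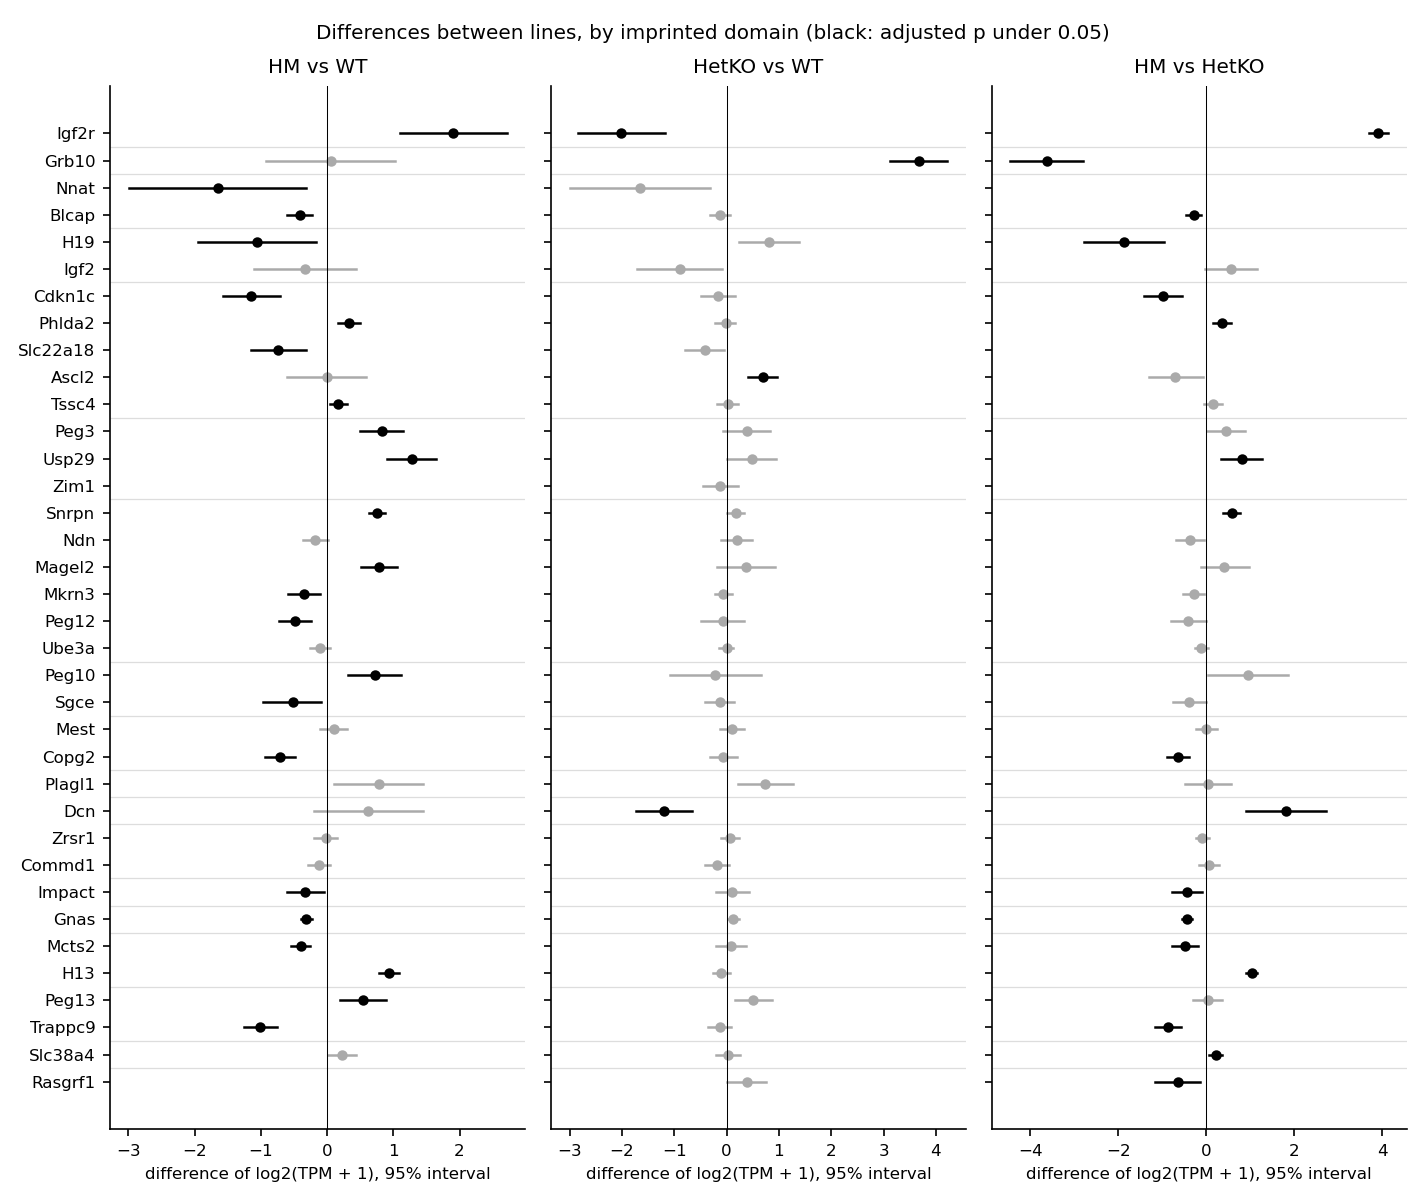
Difference of mean log2(TPM + 1) with its 95% interval (x axis) for each tested imprinted gene (y axis, grouped by domain), in HM against WT, HetKO against WT and HM against HetKO. Black marks passed an adjusted p of 0.05 and grey marks did not. Igf2r lies at 1.90, -2.01 and 3.91 and Grb10 at 0.06, 3.68 and -3.62, while no other gene of the HetKO against WT panel lies beyond 1.65 in size.

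Igf2r was the gene that set the 3 lines furthest apart. It encodes the receptor that carries IGF2 to the lysosome for degradation. The gene (ENSMUSG00000023830.14) lies in GRCm38 on chromosome 17 from 12682406 to 12769664 on the minus strand. Its TPM in WT samples 1 to 6 was 10.8, 2.06, 1.85, 10.1, 2.02 and 1.71. In HetKO it was 0.23, 0.01, 0.22, 0.23, 0.00 and 0.18, and in HM 16.6, 17.0, 17.3, 16.4, 15.4 and 14.3. The groups did not overlap in any comparison, with HetKO near 0, HM in a narrow band at the top, and WT 1 and 4 well above the other WT samples. HM was 1.90 higher than WT (adjusted p = 0.00106 from limma, standard error 0.37). HetKO lay below WT, at -2.01 (adjusted p = 0.00573 from limma, standard error 0.38). That call was lost in the unequal-variance test (adjusted p = 0.0617) and with pair means (adjusted p = 0.246), and without WT 1 and 4 Igf2r fell under the filter in this comparison. Between HM and HetKO the log2 difference was 3.91 (standard error 0.10, adjusted p = 2.02e-11 from limma). Without WT 1 and 4, HM was 2.56 above WT (adjusted p = 1.39e-08 from limma).

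Airn, the paternal antisense RNA whose transcription silences Igf2r on the same chromosome, starts at position 12741311 of chromosome 17 on the plus strand. It was listed at 1.42, 0.34, 0, 0.76, 0.53 and 0.08 TPM in WT samples 1 to 6, and at 0 in all HetKO and all HM samples. So the RNA was seen in 5 of 6 WT samples and in neither edited line, whereas Igf2r was lowest in the one and highest in the other. Airn missed the filter and was not tested. It is largely unspliced and overlaps Igf2r, poly(A) selection can miss such RNA, and the sources used here do not say whether reads were assigned by strand, so its values are uncertain. Of 15 other tested genes within 1 Mb of this domain, none passed between HetKO and WT and 5 passed between HM and WT, with medians of -0.06 and -0.07. Over all genes 10.2% and 51.4% passed in these comparisons.

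Grb10 was raised in HetKO alone. It encodes an adaptor that restrains insulin and IGF receptor signalling, and the gene (ENSMUSG00000020176.17) lies on chromosome 11 from 11930508 to 12038683 on the minus strand. WT samples 1 to 6 held 7.13, 12.6, 25.0, 7.78, 12.8 and 20.5 TPM, and HM samples 5.08, 27.7, 27.4, 4.72, 16.5 and 17.96 TPM. All 6 HetKO samples lay between 154 and 206 TPM. HetKO stood clear of both other lines, whose ranges overlapped. The mean was 179 ± 21.9 TPM in HetKO (SD, n = 6) against 14.3 ± 7.10 TPM in WT (SD, n = 6), a ratio of 12.5. On the log2 scale HetKO was 3.68 above WT (adjusted p = 1.67e-06 from limma, standard error 0.25), and it held with pair means (adjusted p = 0.0106). HM was 0.06 from WT (95% interval -0.92 to 1.03, adjusted p = 0.927 from limma), and it lay below HetKO at -3.62 (standard error 0.38, adjusted p = 2.93e-05 from limma). The 2 other genes tested within 1 Mb did not pass in any comparison, with differences from -0.28 to 0.30. Upstream and internal promoters cannot be told apart in a gene-level table.

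Nnat, which encodes neuronatin, a small membrane protein of the endoplasmic reticulum (ENSMUSG00000067786.16), lies inside an intron of Blcap on chromosome 2 from 157560078 to 157562522. WT 1 and 4 held 12.8 and 13.5 TPM, while WT 2, 3, 5 and 6 held 0.37, 0.34, 1.18 and 0.22 TPM. It was listed at 0 in all 6 HetKO and all 6 HM samples. Each WT sample thus lay above each sample of the edited lines, but most of the WT level came from a pair of samples. The test passed between HM and WT (adjusted p = 0.0392 from limma) and not between HetKO and WT (adjusted p = 0.107 from limma), although both groups had the same values. The first call was lost without the filter, with centred samples, after quantile normalization, in the unequal-variance test and with pair means, with adjusted p from 0.065 to 0.176. Without WT 1 and 4 Nnat fell under the filter. Blcap, a growth-restraining gene read from the other strand, fell in HM from 24.7 ± 3.06 to 18.3 ± 1.67 TPM (SD, n = 6 each), a log2 difference of -0.41 (adjusted p = 0.00196 from limma). In HetKO it was at 22.5 ± 1.94 TPM (SD, n = 6) and did not pass.

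**Figure D3:**
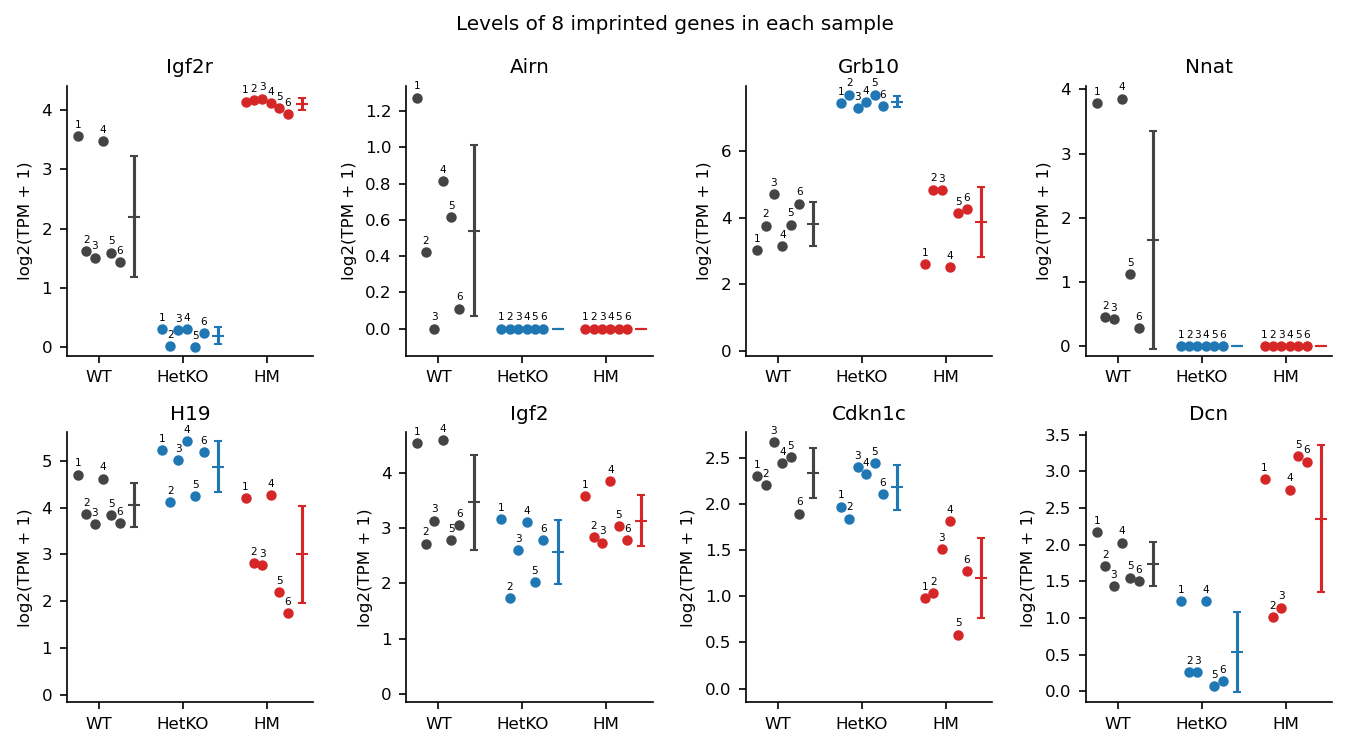
Level of 8 imprinted genes as log2(TPM + 1) (y axis, own scale in each panel) in each sample of the 3 lines (x axis). Numbers are replicates, and the bar beside each line is the mean with its SD. Igf2r separates the lines, Grb10 is high in HetKO, and Airn and Nnat are at 0 in both edited lines. WT 1 and 4 lie above the other WT samples in Igf2r, Nnat, H19 and Igf2, and below them in Grb10.

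The H19-Igf2 domain on chromosome 7 pairs a maternal noncoding RNA with a paternal fetal growth factor. H19 held 25.0, 13.5, 11.6, 23.4, 13.3 and 11.8 TPM in WT samples 1 to 6. In HetKO it held 36.3, 16.4, 31.1, 41.6, 17.99 and 35.3 TPM, and in HM 17.4, 6.01, 5.85, 18.3, 3.58 and 2.37 TPM. HetKO samples tended to be highest and HM samples lowest, but neighbouring groups overlapped. HM was below WT at -1.05 (adjusted p = 0.0466 from limma), a call lost under 6 alternatives, with adjusted p from 0.0939 to 0.193. HM was below HetKO at -1.86 (adjusted p = 0.0055 from limma). HetKO was at 0.81 from WT (adjusted p = 0.0683 from limma), which passed without WT 1 and 4 (1.11, adjusted p = 0.0246) or without HetKO 2 and 5 (1.15, adjusted p = 0.00935). Igf2 held 22.1 and 23.0 TPM in WT 1 and 4 against 5.58 to 7.79 TPM in the other WT samples, 2.32 to 7.94 TPM in HetKO and 5.65 to 13.4 TPM in HM. Igf2 did not pass in any comparison of the main test. With the replicate number as a block, HetKO passed below WT (-0.90, adjusted p = 0.02 from limma) and HM above HetKO (0.57, adjusted p = 0.0401 from limma). WT 1 and 4 were thus high in both genes of the domain, as they were in Igf2r and Nnat. They were lower than the other WT samples in 14 of the 23 imprinted genes that set them apart.

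In the Kcnq1 domain, also on chromosome 7, growth-limiting genes moved in different directions in HM. Cdkn1c, an inhibitor of cyclin-dependent kinases, held 2.73 to 5.38 TPM in WT (median 4.19) and 0.5 to 2.53 TPM in HM (median 1.23), with no overlap. It fell by 1.14 on the log2 scale (standard error 0.20, adjusted p = 0.000514 from limma) against WT. HetKO, at 2.59 to 4.44 TPM, did not pass against WT, and HM was below it at -0.98 (adjusted p = 0.00306 from limma). Slc22a18, a transporter, went from 1.31 to 2.09 TPM in WT to 0.13 to 1.24 TPM in HM, again without overlap, at -0.74 (adjusted p = 0.00606 from limma). Phlda2, which limits placental growth, rose instead, from 105 ± 9.91 to 133 ± 13.3 TPM (SD, n = 6 each), at 0.33 (adjusted p = 0.00352 from limma). Tssc4 rose by 0.17 (adjusted p = 0.0341 from limma), a call lost without WT 1 and 4 and where all 3 lines were fitted together (adjusted p = 0.107 in both).

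Ascl2, a transcription factor of trophoblast progenitors, was the one gene of this domain to pass in HetKO. Its values were 5.2 to 7.9 TPM in WT, 8.64 to 15.1 TPM in HetKO and 3.8 to 13.8 TPM in HM. HetKO lay above all WT samples, at 0.69 (standard error 0.13, adjusted p = 0.0052 from limma), with the call lost where all 3 lines were fitted together (adjusted p = 0.0785). HM 2 and 3, with 13.8 and 12.4 TPM, reached the HetKO range, whereas the other 4 HM samples stayed at 3.8 to 4.93 TPM. HM did not pass against WT, and the sign of that difference depended on the scaling. HetKO 2 and 5 held the highest Ascl2 levels among HetKO samples as well as the high Eomes levels given above, and the part of the latter in this result was not tested. Without them Ascl2 stayed past the threshold in HetKO.

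Both genes that share the Peg3 control region rose in HM. Peg3 encodes a zinc finger protein and Usp29 a ubiquitin protease, and they are read in opposite directions from start windows that share 263 bases on chromosome 7. Peg3 went from 50.9 to 82.9 TPM in WT to 99.0 to 158 TPM in HM, without overlap, at 0.83 (standard error 0.15, adjusted p = 0.000715 from limma). Usp29 went from 1.66 to 3.42 TPM to 6.06 to 10.9 TPM, also without overlap, at 1.28 (standard error 0.17, adjusted p = 7.31e-05 from limma). In HetKO both were highest in replicates 2 and 5, with 147 and 121 TPM of Peg3 and 7.02 and 6.63 TPM of Usp29, and neither passed against WT. The third gene, the zinc finger gene Zim1, stayed near 1 TPM in every line, with 0.18 to 1.87 TPM in HM.

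The Snrpn-Ube3a domain on chromosome 7, the counterpart of the human Prader-Willi and Angelman region, held genes that rose and genes that fell in HM. Snrpn held 646 to 731 TPM in WT and 1063 to 1289 TPM in HM, and rose by 0.76 (standard error 0.05, adjusted p = 1.33e-06 from limma). HetKO, at 635 to 889 TPM, did not pass against WT. Magel2, a MAGE-family regulator of protein recycling, went from 16.3 to 25.9 TPM in WT to 31.2 to 44.3 TPM in HM, at 0.79 (standard error 0.13, adjusted p = 0.000297 from limma). HetKO 2 and 5 held 49.4 and 42.5 TPM of Magel2 against 15.3 to 26.4 TPM in the other HetKO samples. Mkrn3, a makorin E3 ligase gene, and Peg12 fell, at -0.35 (adjusted p = 0.0177 from limma) and -0.48 (adjusted p = 0.00291 from limma). Both calls were lost with centred or quantile normalized samples, with adjusted p from 0.0586 to 0.182. Ndn, another MAGE gene, and Ube3a, the E3 ligase of Angelman syndrome, did not pass, at -0.18 and -0.11. Without WT 1 and 4 Ube3a passed, at -0.18 (adjusted p = 0.0447 from limma). So of the 5 paternally expressed genes of this domain among the 40, 2 rose, 2 fell and 1 did not pass. Snurf and the noncoding RNA Snhg14, paternally expressed genes of the domain outside the 40, also rose in HM, at 0.47 (adjusted p = 0.000566 from limma) and 0.41 (adjusted p = 0.00234 from limma). Snrpn shares its transcript with Snurf, and how the counting divided them is not stated in the sources used here.

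**Figure D4:**
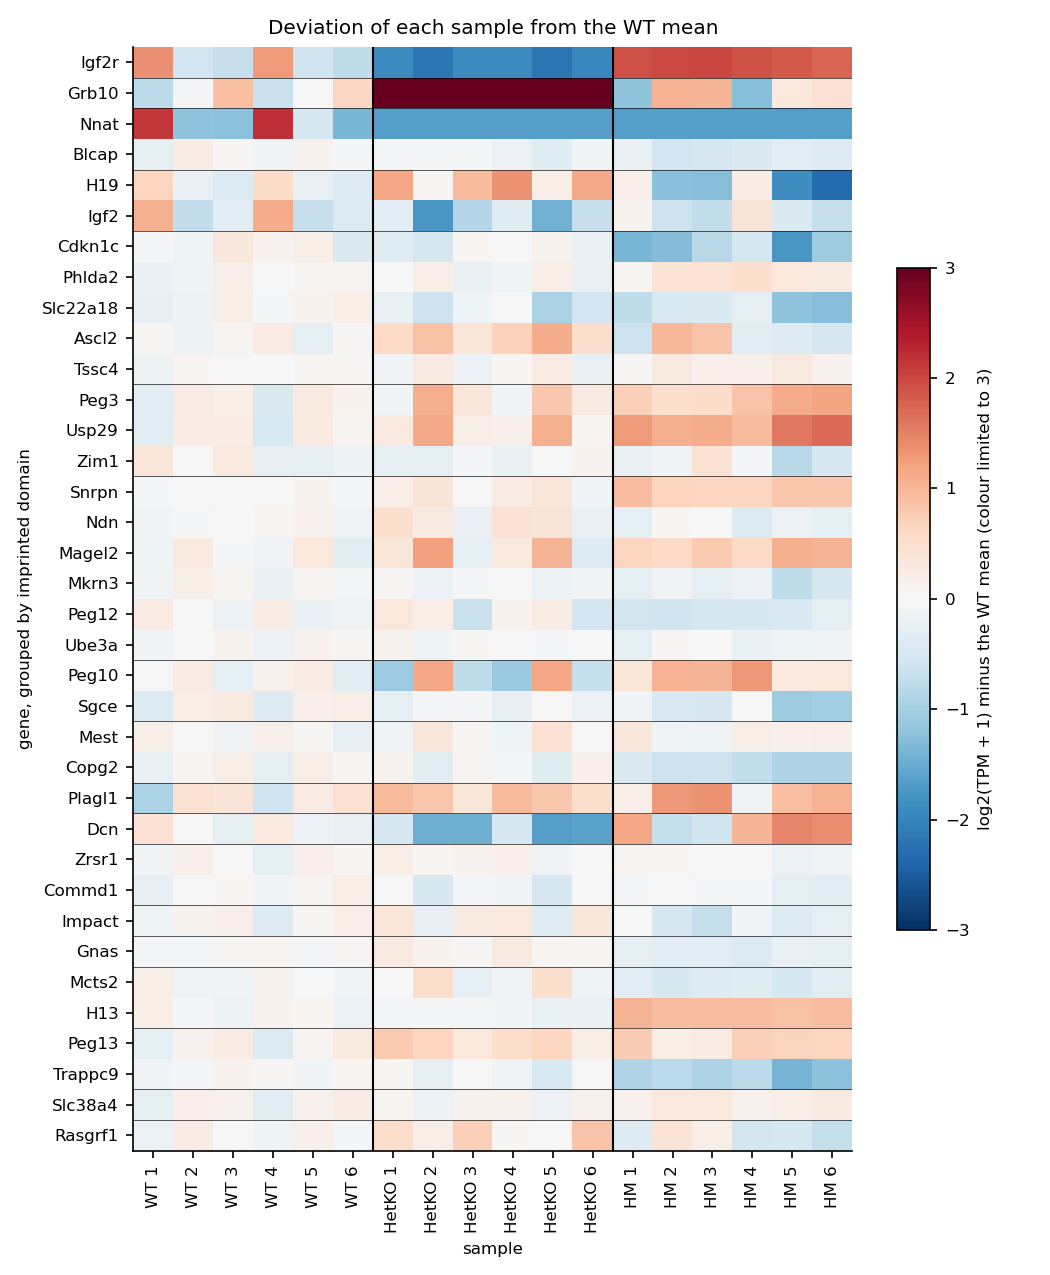
Level of each imprinted gene (rows, grouped by domain) in each of the 18 samples (columns), as log2(TPM + 1) minus the WT mean, red above and blue below, with colour limited to 3. Igf2r, Grb10, Snrpn, H13 and Trappc9 change as whole lines, while Nnat and Igf2 differ within WT and Peg10 and Peg3 within HetKO.

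Peg10 and Sgce share a start region on chromosome 6 and are both paternally expressed, and in HM they moved apart. Peg10, a retrotransposon-derived gene needed in placenta, rose from 105 to 156 TPM in WT to 162 to 325 TPM in HM, at 0.72 (standard error 0.18, adjusted p = 0.00558 from limma, 0.108 where all 3 lines were fitted together). Sgce, a sarcoglycan of the muscle membrane complex, went from 28.3 to 45.7 TPM to 17.7 to 37.3 TPM, at -0.52 (adjusted p = 0.0438 from limma), a call lost under 7 alternatives, pair means among them. In HetKO, replicates 2 and 5 held 299 and 295 TPM of Peg10 and the other 4 held 61.0 to 81.6 TPM, so that WT lay between them. HetKO did not pass against WT with all samples, at -0.22, and without replicates 2 and 5 it was lower at -0.91 (adjusted p = 0.00205 from limma). Around this pair, within 1 Mb, HM was lower than WT in 4 of 6 other tested genes, against 32.0% of all genes. The 6 had a median of -0.46.

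Besides Igf2r and Blcap, further genes that host or overlap another imprinted transcript changed in HM, among them H13, Trappc9 and Copg2. Herc3, read as a neighbour, spans Nap1l5, which was not tested. Mean Herc3 fell from 19.9 TPM in WT to 9.64 TPM in HM, at -1.04 (adjusted p = 0.000781 from limma), with overlapping samples. Gnas, which the antisense RNA Nespas overlaps, also fell, and both are given below. H13, which encodes signal peptide peptidase, held 17.6 to 22.8 TPM in WT, 17.1 to 19.4 TPM in HetKO and 37.2 to 41.1 TPM in HM. Its mean of 38.9 ± 1.25 TPM in HM (SD, n = 6) was 1.95 times the WT mean, with a log2 difference of 0.93 (standard error 0.07, adjusted p = 1.38e-06 from limma). Mcts2, the retrogene inside it, fell from 35.8 ± 3.17 to 26.9 ± 1.55 TPM (SD, n = 6 each), at -0.40 (adjusted p = 0.000368 from limma). HM samples thus stood apart from both other lines in both genes, in opposite directions. Mcts2 is a near copy of Mcts1, and reads may be divided between them.

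Trappc9, a subunit of a vesicle-tethering complex, held 6.31 to 7.41 TPM in WT and 1.97 to 3.51 TPM in HM, without overlap. It fell by 1.01 on the log2 scale (standard error 0.12, adjusted p = 2.85e-05 from limma). Peg13, the noncoding RNA in its intron, rose from 1.01 ± 0.366 to 1.91 ± 0.475 TPM (SD, n = 6 each), at 0.54 (adjusted p = 0.0142 from limma), a call lost without WT 1 and 4 (adjusted p = 0.0611). Peg13 was also at 1.85 ± 0.438 TPM in HetKO (SD, n = 6), which did not pass, while Trappc9 there, at 4.67 to 7.07 TPM, overlapped WT. Copg2, a coat subunit gene that overlaps the end of Mest, fell from 30.9 to 42.3 TPM in WT to 19.1 to 27.3 TPM in HM, at -0.71 (standard error 0.11, adjusted p = 0.000163 from limma). Mest, a hydrolase gene, was at 121, 131 and 131 TPM in WT, HetKO and HM and did not pass, except between HM and WT with centred samples (0.28, adjusted p = 0.0477 from limma). Commd1, a copper metabolism gene, and its retrogene guest Zrsr1 did not pass in any comparison of the main test. Between HM and WT Commd1 passed after quantile normalization (-0.24, adjusted p = 0.0382 from limma) and without WT 1 and 4 (-0.21, adjusted p = 0.0318 from limma).

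**Figure D5:**
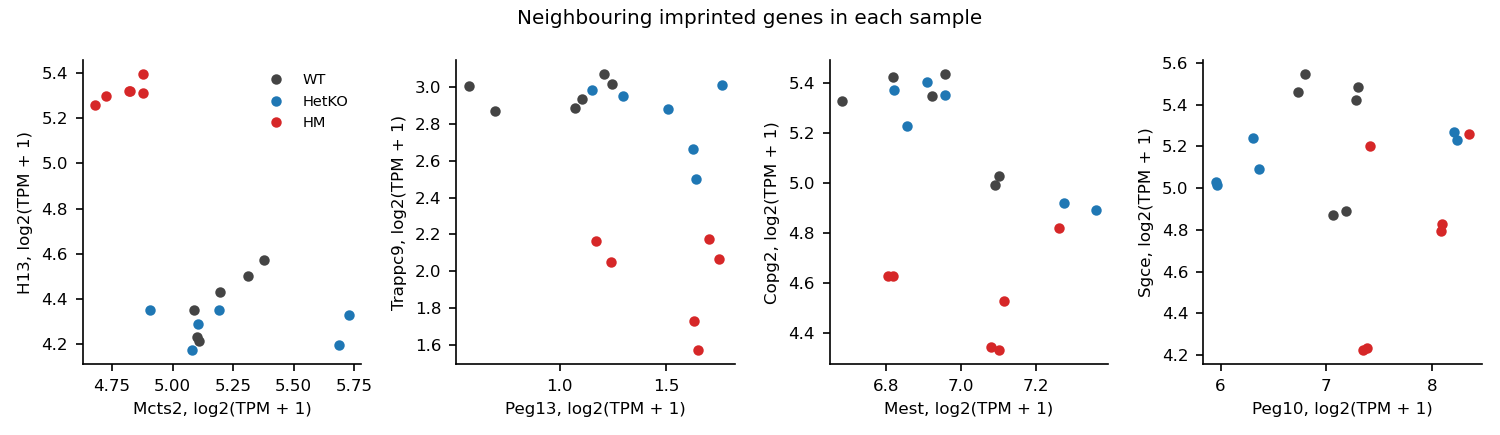
Levels of neighbouring imprinted genes as log2(TPM + 1), the transcript inside or beside (x axis) against its host or partner (y axis), with 1 point per sample and axes cut to the data. HM samples lie apart in H13, Trappc9 and Copg2, while their Mest and Peg13 levels overlap those of the other lines.

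Dcn, a proteoglycan of the extracellular matrix, was lowest in HetKO. Its TPM was 3.49, 2.27, 1.71, 3.08, 1.93 and 1.83 in WT samples 1 to 6, then 1.35, 0.20, 0.20, 1.35, 0.05 and 0.10 in HetKO and 6.45, 1.02, 1.21, 5.74, 8.21 and 7.77 in HM. HetKO lay below all WT samples, at -1.20 (standard error 0.24, adjusted p = 0.00849 from limma), and below most HM samples, with HM 1.82 higher (standard error 0.42, adjusted p = 0.00603 from limma). HM 2 and 3 fell within the HetKO range. The other 3 fibroblast markers summed to 28.9 to 32.1 TPM in WT, 9.31 to 37.8 TPM in HetKO and 18.1 to 23.2 TPM in HM, so they did not follow Dcn, and the 4 HetKO samples besides 2 and 5 held the most of them.

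The remaining domains hold 1 of the 40 genes each. Gnas fell from 480 ± 16.0 TPM in WT to 388 ± 17.9 TPM in HM (SD, n = 6 each), at -0.31 (adjusted p = 7.59e-05 from limma), which missed the threshold with centred samples (adjusted p = 0.0578). Of 17 other tested genes within 1 Mb of Gnas, 7 were lower and 1 higher in HM, with a median of -0.32. Over all genes 32.0% were lower and 19.4% higher in HM. Impact, an inhibitor of the amino acid sensor GCN2, fell by 0.33 (adjusted p = 0.0468 from limma), a call lost under 7 of its alternatives, and 7 of 8 other tested genes around it were lower too, with a median of -0.75. Other surroundings were mixed. Around the Peg3 domain 3 of 19 were higher and 3 lower, and around H13 6 of 27 were higher and 6 lower. Around the Kcnq1 domain 1 of 14 was higher and 3 were lower. Plagl1, a zinc finger regulator of growth genes, held 19.5 to 53.3 TPM in WT, lowest in samples 1 and 4, and 35.9 to 101 TPM in HM, and did not pass at 0.78 (adjusted p = 0.0538 from limma). It passed with a filter of 5 TPM, with centred or quantile normalized samples, where all 3 lines were fitted together and with the replicate number as a block, with adjusted p from 0.000833 to 0.0488. Slc38a4, an amino acid transporter, rose by 0.21 in HM against HetKO (adjusted p = 0.0371 from limma), a call lost without HetKO 2 and 5 (adjusted p = 0.101) and under 7 other alternatives. Against WT it did not pass (adjusted p = 0.0714 from limma). It passed there with centred samples (0.41, adjusted p = 0.00126 from limma) and with the replicate number as a block (adjusted p = 0.0317 from limma). Rasgrf1, a Ras exchange factor, held 0.79 to 2.29 TPM in HetKO and 0.11 to 1.43 TPM in HM, at -0.65 (adjusted p = 0.0465 from limma), a call lost under 5 alternatives, pair means among them.

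RNA levels were also read for a list of 17 genes that keep, set or remove methyl marks or regulate chromatin. Among them are Zfp57, Trim28, Dnmt1, Uhrf1, Tet1 and Ezh2. Between HM and WT 8 of 17 passed (47.1%, against 51.4% of all genes), 5 higher and 3 lower. In HetKO against WT 3 of 17 passed (17.6%, against 10.2%), and between HM and HetKO 5 of 16 (31.2%, against 34.6%). Setdb1, a histone methyltransferase of the imprint-protecting complex, rose in both edited lines, at 0.58 in HM (adjusted p = 0.000767 from limma) and 0.59 in HetKO (adjusted p = 0.00143 from limma). Dnmt3l, the cofactor that helps set imprints in germ cells, held 20.9 and 20.4 TPM in WT 1 and 4 against 1.88 to 4.41 TPM in the other WT samples. It held 0.42 to 1.42 TPM in HetKO and 5.25 to 68.4 TPM in HM. Dnmt3l was thus lowest in HetKO and high in the same WT pair as Igf2r, Nnat, H19 and Igf2. HetKO was below WT at -1.89 (adjusted p = 0.0296 from limma) and below HM (3.15, adjusted p = 0.000402 from limma), and HM did not pass against WT (1.26, adjusted p = 0.122 from limma). Tet2, which oxidizes methylated cytosine, did not pass in HM either, at -0.76 (adjusted p = 0.113 from limma). Whether these levels bear on the imprinted genes was not tested.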

How the data were processed

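Poly(A)-selected RNA of WT, HetKO and HM P19 cells was sequenced with a stranded mRNA kit, in 6 samples per line. Per its methods, the study joined paired reads using BBMerge and estimated gene expression with RSEM, and the authors deposited TPM for 55450 genes. The submitters' processing notes also name cutadapt, STAR and mm10. Each sample sums to about 1000000 TPM, so depth is unknown and precision comes from the spread between samples. All 55450 versioned gene identifiers matched GENCODE M21 on GRCm38. The table held 0 per-sample columns that were not used.

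A gene entered a comparison if it averaged 1 TPM or more in the 12 samples concerned, and the test used log2(TPM + 1), a pseudocount of 1, and limma 3.58.1 in R 4.3.3 (two-sided, variance trend, Benjamini-Hochberg over all genes tested, threshold 0.05). Each comparison used its own samples. On data simulated for HM against WT, 181 of 200 genes changed 2-fold among 14043 were recovered, with 9 false calls. The simulated samples were drawn independently, with the WT spread in both groups and without the alike pairs of the real samples. The false calls therefore do not measure the error in these data. Tables and plots used Python 3.11.15, numpy 2.4.6, pandas 2.3.3 and matplotlib 3.10.9. Promoter sequences came from RefSeq on GRCm38.p6.

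The members and lists were chosen with earlier results of these data known. Values by sample, or their range and median, are given for members that passed and were among the 12 largest changes of a comparison, 16 genes in all, and the others by line means, ranges or counts. From the list of 17 methylation and chromatin genes and the list of other imprinted genes the 3 largest changes between HM and WT are named. Markers, neighbours and the Dlk1-Dio3 cluster were described without that rule. Alternatives were a pseudocount of 0.1, no filter or 5 TPM, centred or quantile normalized samples, the 3 lines fitted together, an unequal-variance test as named in the study's statistics, the replicate number as a block, a 1.5-fold limit, pair means, and leaving out HetKO 2 and 5. Leaving out WT 1 and 4 was added after the values were seen. Libraries of the study's other assays (miRNA-seq, CLASH) were not used here.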

Additional observations from a re-analysis of the deposited data

Results flagged for a closer look

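Igf2r was the only one of the 40 genes with every HM sample above and every HetKO sample below all WT samples. The difference between the lines was itself tested, at 3.91 on the log2(TPM + 1) scale between HM and HetKO (standard error 0.10, adjusted p = 2.02e-11 from limma). It was kept with pair means and under the other alternatives run for that comparison. Among the 99 groups of 6 samples with a mean of at least 1 TPM, 0 held a single sample far from the others by Dixon's criterion. Chance alone would give about 4.95 if the 6 samples were independent. Where samples come in alike pairs, a single sample apart is unlikely from the outset, so that figure does not apply here. Dixon's criterion does not see a pair of alike samples, such as WT 1 and 4 in Nnat or HetKO 2 and 5 in Peg10.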

How the results depend on the processing

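The count of imprinted genes that passed between HM and WT went from 23 to 13 with a 1.5-fold limit and to 13 with pair means. Between HetKO and WT it went from 4 to 2 with a filter of 5 TPM, to 7 with centred samples and to 1 with pair means. Between HM and HetKO it went from 17 to 10 with the 1.5-fold limit and to 3 with pair means. Counts over all genes fell as well. The 1.5-fold limit called 3008 of 14043 between HM and WT and 2099 of 13762 between HM and HetKO. Pair means called 3414, 35 and 454 genes in the 3 comparisons. Between HetKO and WT 1007 of 10422 passed with the filter of 5 TPM and 1516 of 13999 with centred samples, against 1421 of 13999 before. With fewer samples, pair means leave 3 values per line. Without WT 1 and 4 the counts against WT were 21 for HM and 5 for HetKO, and Nnat and Igf2r (against HetKO) fell under the filter. Over all genes the counts without WT 1 and 4 were 7387 of 13972 for HM and 1029 of 13883 for HetKO. The share of higher genes among the imprinted genes called between HM and WT was 43.5%, but 68.4% with centred and 55% with quantile normalized samples. It was 50%, 71.4% and 66.7% between HetKO and WT and 41.2%, 53.8% and 42.9% between HM and HetKO. Over all genes the scaling moved this share as well. Higher calls there were 2722 of 7220, 4508 of 7387 and 3632 of 7111 between HM and WT. Between HetKO and WT they were 519 of 1421, 768 of 1516 and 728 of 1515. Between HM and HetKO they were 1926 of 4765, 2961 of 4861 and 2357 of 4781. Centring moved the median of all genes between HM and WT from -0.0942 to 0.0839. Over all 40 genes the sign turned 31 times under these alternatives, in 17 genes, and 0 of these values passed before or after. Among the 16 named genes it turned for Ascl2 between HM and WT with centred (0.17) and quantile normalized samples (0.22) and without WT 1 and 4 (0.07), and for Grb10 there without WT 1 and 4 (-0.31). Between HetKO and WT it turned for Magel2 (-0.004) and Copg2 (0.08) without HetKO 2 and 5. Of 490 values of named genes under alternatives, 445 kept direction and call, 30 lost the call and 9 gained it. The causes were not tested.

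Replicate numbers do not pair the samples. Same-numbered samples deviated from their line means with a mean correlation of 0.003 for HM against WT, 0.064 for HetKO against WT and 0.020 for HM against HetKO. With the number as a block, 23, 7 and 16 imprinted genes passed in these comparisons, against 6889 of 14043, 1206 of 13999 and 4200 of 13762 over all genes. TPM carries no depth, so no limit of detection could be given for the genes listed at 0.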

Other observations

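Another 38 imprinted genes, read from a list besides the 40, hold values not described above. Of 22 tested between HM and WT, 12 passed (54.5%, against 51.4% of all genes), 6 higher and 6 lower. In HetKO against WT 4 of 22 passed, all lower (18.2%, against 10.2%), and between HM and HetKO 10 of 22, 8 higher and 2 lower (45.5%, against 34.6%). Inpp5f, a phosphoinositide phosphatase gene, lay between 77.4 and 89.6 TPM in HM against 27.8 to 32.2 TPM in WT, at 1.46 (adjusted p = 2.48e-09 from limma). In HetKO it was lower than WT, at -0.34 (adjusted p = 0.015 from limma), so that its HM and HetKO samples, like those of Igf2r, lay on opposite sides of all WT samples. Tnfrsf22, a decoy death receptor gene at the edge of the Kcnq1 domain, rose in HM from 6.7 to 11.6 TPM in WT to 17.1 to 25.1 TPM, at 1.26 (adjusted p = 2.99e-05 from limma). Nespas, the antisense RNA of the Gnas domain, rose from 2.26 to 4.44 TPM, means of 6 samples, at 0.80 (adjusted p = 0.00594 from limma), while Gnas itself fell. In the Dlk1-Dio3 cluster, all 4 tested genes fell in HM relative to WT, with Meg3 at 252 to 297 TPM in WT and 0 to 0.01 TPM in HM.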
